A study of Homo sapiens with 48 samples.

Results

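Oci-Ly18 is an established human line of the germinal centre B cell subtype of diffuse large B cell lymphoma, and 1 comparison of its treatments is described here: the DOT1L and EZH2 inhibitors together (the combination) against the DOT1L inhibitor alone. The 3 combination libraries and the 3 DOT1L inhibitor libraries of this line were chosen by their labels, 6 of the 48 libraries of the study, and all genes were used. Both groups therefore received the DOT1L inhibitor EPZ-5676 (DOT1Li), whose name 1 label spells EZP-5676, and they differ in the EZH2 inhibitor GSK343 (EZH2i). The other Oci-Ly18 groups are EZH2i alone and DMSO, the vehicle, and the same 4 treatments were given to the lines Oci-Ly7, Oci-Ly8 and SUDHL6, with 3 libraries in each group. Cells grew in medium with fetal bovine serum for 6 days and were reseeded on day 3 with fresh medium and inhibitors; the doses were not given in the sources used here. Whether replicates came from separate cultures is not in the labels, and p-values then measure only the spread among these libraries.

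EZH2 is the enzyme of Polycomb repressive complex 2 (PRC2), which methylates histone H3 at lysine 27 and keeps developmental genes, and in germinal centre B cells also genes of B cell exit from the germinal centre, silent. DOT1L methylates histone H3 at lysine 79 over the bodies of transcribed genes. Germinal centre B cells divide fast, and they leave the germinal centre as memory or plasma cells.

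Library totals of the 6 libraries ran from 12939667 to 16326768 counts. Levels are given as CPM, counts scaled to a common library total, log2 fold changes as the combination over DOT1Li ± their standard error, and values of single libraries in the order of replicates 1, 2 and 3. A gene was called when its Benjamini-Hochberg adjusted p in edgeR's quasi-likelihood test was under 0.05 over the 17749 genes tested. The B cell genes MS4A1 (641 to 799 CPM), PAX5 (424 to 480 CPM) and CD22 (144 to 320 CPM) were present in all 6 libraries. Of the germinal centre type markers, BCL6 and MME were well expressed, LMO2 was at 1.35 to 2.87 CPM and SERPINA9 had too few counts to be tested.

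Combination replicate 1 stood apart from replicates 2 and 3. Over the 884 genes called higher by at least 1 (log2) with EZH2i alone against DMSO, its median log2 difference from the DOT1Li mean was 0.90, against 1.30 and 1.32 in the other 2 libraries. It was the lowest of the 3 for 670 of these genes (75.8%). Over the 1605 genes called lower with EZH2i alone its median was -0.24, against -0.34 and -0.33, and it was the highest of the 3 for 1021 of them (63.6%). Its labels give no reason, and the cause was not tested. Without it 2255 genes were called higher and 1514 lower, beside 2258 and 1580 with it.

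In that comparison 2258 genes (12.7% of those tested) were higher and 1580 (8.90%) lower in the combination than with DOT1Li alone, 21.6% in either direction. Higher genes moved further: their median log2 fold change was 0.74 and 831 of them (4.68% of genes tested) reached 1, while lower genes had a median of -0.34 and 107 (0.603%) reached -1. The median over all genes tested was 0.04. In 2171 of the genes called higher and 1530 of those called lower the values of the 2 groups did not overlap, beside 23.2% and 18% of all genes tested that did not overlap in each direction. Of the called genes, 2000 higher and 1470 lower ones were protein coding. Fits on fewer libraries called more lower genes: 2757 with the 12 Oci-Ly18 libraries and 2567 with these 6 alone. Without combination replicate 3 the lower calls came to 1051.

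**Figure D1:**
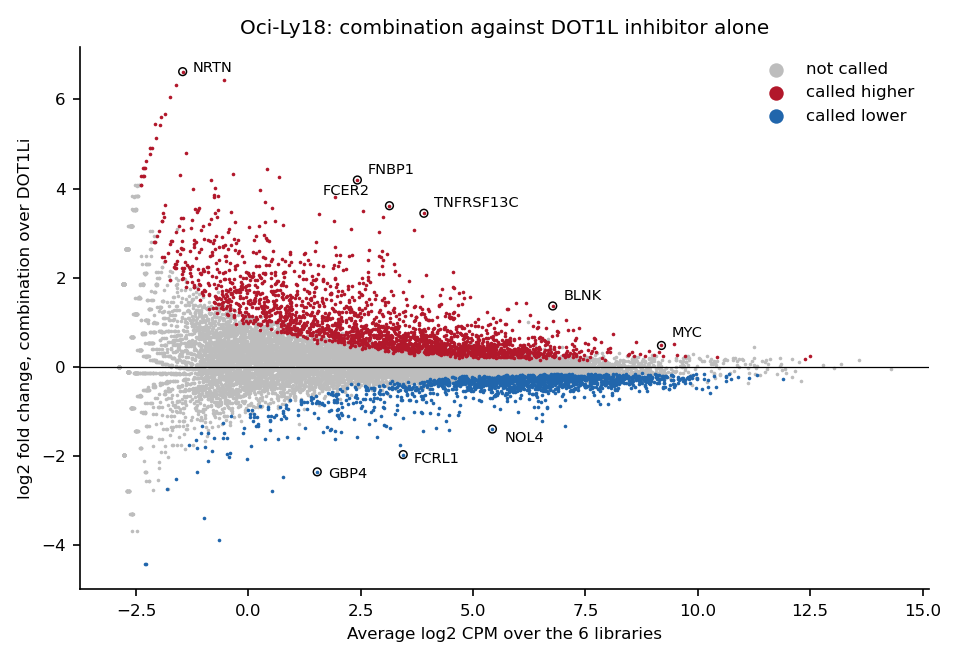
Each point is a tested gene, placed by its average log2 CPM over the 6 libraries and its log2 fold change, combination over DOT1Li; red and blue points were called higher and lower. Large increases lie at low average levels, and at high levels the called genes are mostly lower, with small changes.

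The level of a gene in untreated cells went with the direction of its call. Of the 2239 genes above 100 CPM in DMSO libraries, 31.5% were lower and 3.48% higher in the combination. Between 1 and 10 CPM in DMSO, 17.8% of 4380 genes were higher and 3.47% lower. Among the 570 genes above 0 and up to 0.1 CPM in DMSO, 78 (13.7%) were called higher and 0 lower, and counts this low leave little room for a lower call. The DMSO libraries used for this grouping are not part of the comparison, but the choice of genes tested is not independent of it. A filter on low counts ran over all 48 libraries. Genes this low in DMSO passed it through other libraries, which can be combination libraries. The share called higher at low levels therefore depends on that filter.

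Some genes went from no counts to counts. Of 574 tested genes with 0 counts in all 3 DOT1Li libraries, 20 were called higher, 14 of them protein coding and 9 with 0 counts in DMSO as well. These 574 genes passed the filter on low counts through other libraries, of Oci-Ly18 or of other lines. Their share called higher is smaller than the 12.7% over all genes tested, but it depends on that filter. A gene without DOT1Li counts cannot be called lower. A group count of 0 allows up to 3 counts, a mean of 0.0747 CPM over the DOT1Li libraries, so these folds are lower bounds that cover counting error only. NRTN, which encodes the neurotrophic factor neurturin, had 0.796, 0.864 and 0.835 CPM in the combination, at least 11.1-fold higher. CD6, a lymphocyte surface receptor, had 0.367, 1.02 and 0.707 CPM, at least 9.35-fold higher. ADSS1, an adenylosuccinate synthase of purine metabolism, had 0.122, 0.55 and 0.578 CPM, at least 5.58-fold higher. TRPM8, a cold-sensing cation channel, had 0.122, 0.157 and 0.45 CPM, at least 3.25-fold higher, and its call was lost without combination replicate 3 (adjusted p = 0.0973). The 3 combination libraries together held 37, 30, 18 and 11 counts of these 4 genes, levels far below those of B cell genes.

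The promoters of 3 of these genes are shown because their RNA was at 0 counts with DOT1Li and was counted in the combination; what is bound at them was not measured. NRTN had 2 counts over the DMSO libraries and 37 with EZH2i alone, ADSS1 had 4 and 5, and TRPM8 had 0 in both. They are RefSeq sequences of GRCh38.p14, from 250 bases before to 50 after the annotated start, with every CG dinucleotide in capitals.
NRTN, chr19:5804817-5805116, plus strand: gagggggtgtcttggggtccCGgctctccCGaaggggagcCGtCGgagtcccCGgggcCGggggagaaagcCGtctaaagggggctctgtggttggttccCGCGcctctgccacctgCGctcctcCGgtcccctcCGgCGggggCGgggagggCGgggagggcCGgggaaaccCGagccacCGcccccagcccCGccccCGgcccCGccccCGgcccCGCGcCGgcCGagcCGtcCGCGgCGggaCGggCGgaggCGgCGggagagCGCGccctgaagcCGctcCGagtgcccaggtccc
ADSS1, chr14:104723979-104724278, plus strand: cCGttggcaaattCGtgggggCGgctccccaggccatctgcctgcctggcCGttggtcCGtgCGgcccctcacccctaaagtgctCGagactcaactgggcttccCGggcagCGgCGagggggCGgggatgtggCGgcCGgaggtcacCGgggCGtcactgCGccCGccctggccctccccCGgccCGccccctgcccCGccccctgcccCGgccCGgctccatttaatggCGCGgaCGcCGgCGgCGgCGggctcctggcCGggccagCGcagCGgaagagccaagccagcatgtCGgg
TRPM8, chr2:233917123-233917422, plus strand: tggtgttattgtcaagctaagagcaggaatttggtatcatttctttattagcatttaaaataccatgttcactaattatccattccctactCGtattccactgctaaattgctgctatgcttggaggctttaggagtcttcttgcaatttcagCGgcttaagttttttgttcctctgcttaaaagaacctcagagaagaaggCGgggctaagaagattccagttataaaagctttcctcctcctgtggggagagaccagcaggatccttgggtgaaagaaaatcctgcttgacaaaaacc
CG occurred 38 times in the NRTN promoter, and 16.4% of the 11992 matched promoters of tested genes hold as many. The ADSS1 promoter holds 33 (28.8% hold as many), and the TRPM8 promoter holds 3 (5.61% hold as few). The median over these promoters is 26, with quartiles of 17 and 34. Among these 3 genes were promoters with many and with few CG, the latter that of TRPM8, whose call rested on few counts. These 3 promoters do not describe the called genes as a set.

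Among genes at an average log2 CPM of at least 1, the largest increases were in FNBP1, INF2 and FCER2. FNBP1, on chromosome 9, encodes a membrane-bending adaptor of actin dynamics. Its level was 1.19, 1.43 and 1.04 CPM with DOT1Li and 12.6, 28.9 and 26.6 CPM in the combination, 18.3-fold higher (log2 4.19 ± 0.30, adjusted p = 4.12e-13). A non-coding gene inside it, ENSG00000288924, rose too, from 0, 0.3 and 0 CPM to 0.919, 2.36 and 2.06 CPM (log2 4.01 ± 0.49, adjusted p = 1.74e-08), and reads of the overlapping genes cannot be told apart without the strand setting of the counting. INF2, a formin that assembles actin, went from 0.629, 0.826 and 1.6 CPM to 7.84, 16 and 18.6 CPM (log2 3.80 ± 0.26, adjusted p = 2.48e-14). FCER2 encodes CD23, the low-affinity IgE receptor of mature B cells. Its values of 2.66, 2.1 and 2.71 CPM became 20.1, 32.2 and 39.8 CPM, a 12.3-fold increase (log2 3.62 ± 0.25, adjusted p = 2.95e-14).

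In all 3 of these genes the 2 groups were far apart and combination replicate 1 was the lowest of its group. Combination replicate 1 was also the lowest of its group in TNFRSF13C, the BAFF receptor that carries B cell survival signals. This gene had 5.17, 3.23 and 5.27 CPM with DOT1Li and 36.3, 52.8 and 60.5 CPM in the combination (log2 3.45 ± 0.17, adjusted p = 4.3e-19). The other genes of the 12 with the highest fold changes were ABCA2 (log2 3.51), ADGRE5 (3.44), MYO1E (3.35), FKBP10 (3.27), NOG (3.09), NT5E (3.08), SOX2 (3.02) and SMARCD3 (2.81). They encode a lipid transporter, the adhesion receptor CD97, a myosin, a collagen chaperone, the BMP antagonist noggin, the ectonucleotidase CD73, a pluripotency factor and a subunit of BAF chromatin remodellers. ABCA2 and MYO1E overlap other genes on the genome, and SOX2 lies within SOX2-OT, which rose as well (log2 2.69 ± 0.25, adjusted p = 2.92e-11).

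**Figure D2:**
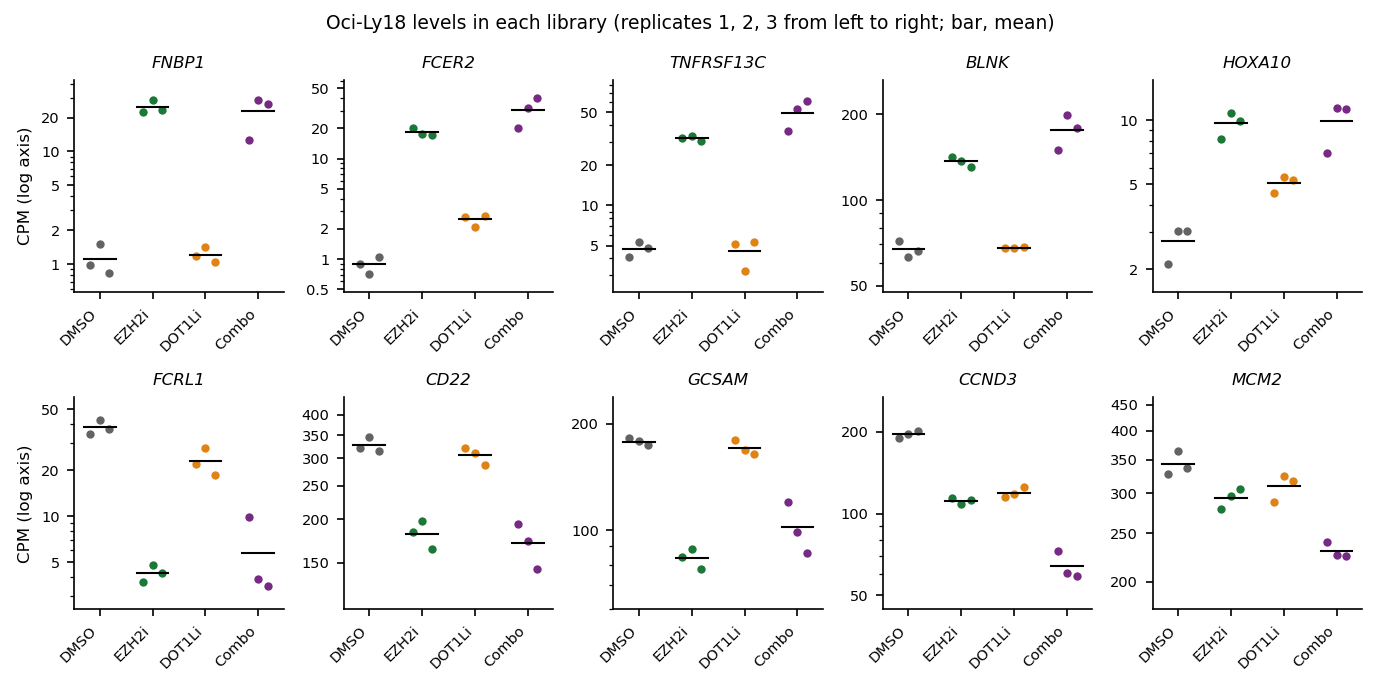
CPM in each Oci-Ly18 library for 10 genes, on log axes with a separate range in each panel; points are replicates 1 to 3 from left to right, and bars are group means. In all 10 panels the combination libraries lie on one side of the DOT1Li libraries, and combination replicate 1 lies nearest to them.

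The large decreases included some genes of interferon response and of B cell surface receptors, and genes of neither kind. GBP4, an interferon-induced GTPase, was at 6.5, 7.88 and 4.87 CPM with DOT1Li and at 1.78, 1.34 and 0.642 CPM in the combination (log2 -2.35 ± 0.33, adjusted p = 8.05e-07). FCRL1, an Fc receptor-like protein of B cells, fell from 21.9, 27.8 and 18.7 CPM to 9.86, 3.85 and 3.47 CPM (log2 -1.97 ± 0.22, adjusted p = 7.28e-09). Its neighbour FCRL2 fell from 24.9, 25.4 and 24.1 CPM to 14.3, 6.36 and 6.74 CPM (log2 -1.43 ± 0.18, adjusted p = 1.06e-07). In both receptors combination replicate 1 was above the other 2 combination libraries and below every DOT1Li library. OAS3, an antiviral oligoadenylate synthase, fell by 1.57 on the log2 scale, and the NADPH oxidase subunits NCF1 and CYBB fell by 1.56 and 1.32. NCF1 has near-identical copies in the genome, so its counts are uncertain. Of the 7 genes of the phagocyte oxidase, these 2 were lower and RAC2 was higher (log2 0.37). NOL4, expressed at 67 to 73.1 CPM with DOT1Li, was at 22.4 to 33.1 CPM in the combination (log2 -1.39 ± 0.15, adjusted p = 7.88e-09).

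Gene lists are described by their counts of called members, to be read against the 12.7% higher and 8.90% lower over all genes tested. Above 100 CPM in DMSO libraries 31.5% of genes were lower, and the lists were not matched for level. Developmental genes, the textbook targets of PRC2, rose in part. Of 36 genes of the HOX clusters measured, 22 passed the filter on low counts, and 7 were higher and 0 lower. Their median log2 fold change was 0.91 (0.79 with genes at 0 counts set at their bound), against 0.04 over all genes. HOXA10 rose from 4.54, 5.4 and 5.27 CPM to 7.04, 11.4 and 11.3 CPM (log2 0.96 ± 0.18, adjusted p = 0.000143). HOXB9 rose from 2.59, 2.7 and 2.79 CPM to 5.14, 7.07 and 8.16 CPM (log2 1.33 ± 0.24, adjusted p = 0.000137). HOXC4 rose less, by 0.47 ± 0.09. All 3 HOX genes were already present with DOT1Li alone. Of 39 other developmental transcription factors tested, homeobox genes outside the HOX clusters among them, 13 were higher and 1 lower, with a median of 0.33. Without a filter on low counts 10 of 82 were higher and 0 lower, with a median of 0.02. Among the 13 were DLX3 (log2 1.78) and GATA4 (log2 2.12), a factor of heart and endoderm, which went from 0.699, 1.05 and 0.639 CPM to 1.84, 4.16 and 4.56 CPM. The higher count fell to 6 without combination replicate 3 and to 8 without DOT1Li replicate 1 or 2.

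The list of genes that PRC2 silences in germinal centre B cells was written from general knowledge, with earlier results of these data known. Of its 23 tested members 10 (43.5%) were higher and 2 lower, beside 12.7% and 8.90% of all genes. Their median was 0.33 (0.26 with genes at 0 counts at their bound). That median was 0.12 without combination replicate 1 and 0.53 without combination replicate 3, and 1 gene was lower without combination replicate 3 or DOT1Li replicate 2. The list holds IRF4, a factor of plasma cell entry, which rose from 72.3, 73 and 75 CPM to 101, 129 and 117 CPM (log2 0.66 ± 0.13, adjusted p = 0.00027). ABAT, a GABA transaminase, and TNFRSF21, a death receptor, rose by 0.74 and 0.65. CDKN1B, an inhibitor of cyclin-dependent kinases, went the other way and fell from 55.5, 53.6 and 62.2 CPM to 41.5, 44.1 and 43.2 CPM (log2 -0.41 ± 0.09, adjusted p = 0.000693). CDKN1A, the p21 inhibitor, was not called (log2 -0.23, adjusted p = 0.375) until the replicate number entered as a block (adjusted p = 0.0119).

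Of 32 tested germinal centre genes 13 (40.6%) were lower and 4 (12.5%) higher, beside 8.90% and 12.7% of all genes, and the median was -0.27. BCL6, a repressor that the germinal centre state depends on, fell from 114, 102 and 110 CPM to 85.9, 69.5 and 71.9 CPM (log2 -0.52 ± 0.13, adjusted p = 0.00206). GCSAM, a germinal centre signalling adaptor, fell from 180, 169 and 164 CPM to 121, 98.8 and 86.1 CPM (log2 -0.75 ± 0.12, adjusted p = 1.51e-05). MYBL1, a transcription factor of dividing germinal centre cells, fell by 0.54, and CCND3, the cyclin D3 of their cell cycle, fell by 0.90. Members also rose: RGS13, a regulator of chemokine receptor signalling, went from 2.52, 3.98 and 2.95 CPM to 15, 25.5 and 17.3 CPM (log2 2.60 ± 0.21, adjusted p = 3.26e-12). KLHL6 rose by 1.03 and MEF2C by 0.88. MME, the CD10 antigen, was at 98.3 to 119 CPM with DOT1Li and 94.3 to 127 CPM in the combination and was not called.

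Plasma cell and memory genes rose in a minority of cases. Of 34 plasma cell genes 8 (23.5%) were higher and 2 lower, with a median of 0.19, and 13 were higher with the replicate block and 14 with the 12 or the 6 Oci-Ly18 libraries. XBP1, the secretory programme's transcription factor, rose from 60.3, 60.7 and 57.9 CPM to 79.7, 101 and 99.9 CPM (log2 0.65 ± 0.12, adjusted p = 8.7e-05), and the surface proteoglycan SDC1 rose by 0.62. PRDM1, the factor that drives plasma cell differentiation, was at 13.7, 11.3 and 10.1 CPM and at 14.3, 12.7 and 12.7 CPM (log2 0.18 ± 0.23, adjusted p = 0.664), so the 2 groups overlapped. The joining chain gene JCHAIN overlapped too. CD38 was lower in every combination library, at 73.7 to 75.9 CPM against 81.3 to 93.3 CPM, but was called only with the replicate block (adjusted p = 0.184 without and 0.0148 with it). Of 24 memory or exit genes 8 were higher and 3 lower, and 5 higher without DOT1Li replicate 1. SKI, a repressor of TGF-beta signalling, rose by 2.36 and the adhesion receptor CD44 by 0.79. CD27, a TNF receptor family member of memory B cells, fell from 18.5, 16.3 and 19.5 CPM to 9.37, 8.25 and 9.12 CPM (log2 -1.02 ± 0.14, adjusted p = 1.04e-07).

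Pan-B cell genes split. Of 25 tested 7 were higher and 9 lower, with a median of 0.06 (-0.0036 without DOT1Li replicate 1, 0.019 without DOT1Li replicate 3, 0.03 without combination replicate 3 and 0.04 without combination replicate 2). BLNK, the adaptor that links the B cell receptor to downstream enzymes, rose from 67.9, 67.9 and 68.6 CPM to 149, 200 and 179 CPM (log2 1.37 ± 0.08, adjusted p = 1.52e-17), and CD24 rose by 0.87. CD22, an inhibitory lectin of B cells, fell from 320, 310 and 286 CPM to 194, 174 and 144 CPM (log2 -0.84 ± 0.11, adjusted p = 1.04e-07). The receptor signalling chains CD79A and CD79B fell by 0.50 and 0.54. PAX5 (adjusted p = 0.711) and EBF1 (adjusted p = 0.641), the lineage's transcription factors, were not called. MS4A1, the CD20 antigen, was called only with the replicate block (adjusted p = 0.13 without and 0.021 with it).

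Of 34 B cell receptor signalling genes 12 were lower and 5 higher, with a median of -0.12. The kinase SYK fell from 731, 796 and 802 CPM to 565, 544 and 548 CPM (log2 -0.49 ± 0.06, adjusted p = 4.44e-08). PIK3CD, the catalytic subunit of the leukocyte phosphoinositide 3-kinase, fell by 0.87. The kinase LYN and the phosphatase PTPN6, which can each restrain the receptor, rose by 0.60 and 1.13.

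Of 15 MHC class II genes 6 were higher and 0 lower, a count that fell to 2 without DOT1Li replicate 1, DOT1Li replicate 3 or combination replicate 2, and to 3 without combination replicate 3. HLA-DOA, a modulator of class II peptide loading, rose from 92.5, 91.2 and 85.2 CPM to 119, 130 and 122 CPM (log2 0.46 ± 0.07, adjusted p = 4.29e-06), and HLA-DMB rose by 0.57 ± 0.15. CIITA, the master activator of these genes, was at 137, 137 and 131 CPM and at 155, 169 and 168 CPM; its call (log2 0.28 ± 0.10, adjusted p = 0.0341) was lost in 5 of the 6 fits that left out a library, each but that without combination replicate 1, with adjusted p-values of 0.0675 to 0.142. HLA class I and presentation genes had 1 higher and 4 lower members of 17; the higher count was 2 without combination replicate 1 and 0 without any other of the 6 libraries, and the lower count was 2 without combination replicate 3. Among the lower genes were the peptide trimming enzyme ERAP1 (log2 -0.32) and the loading factor TAPBP (log2 -0.26).

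Interferon response genes were lower in 17 of 55 cases and higher in 4, with a median of -0.11 (-0.20 without combination replicate 1). The lower count was 9 without combination replicate 3 and 11 without combination replicate 2. OAS1 fell from 5.38, 6.01 and 4.47 CPM to 2.76, 1.57 and 1.8 CPM (log2 -1.35 ± 0.22, adjusted p = 5.26e-06). PARP9 and its partner DTX3L rose by 0.66 each, and MX1, at 17.6 to 22.2 CPM with DOT1Li and 24.3 to 29.7 CPM in the combination, was not called (log2 0.41, adjusted p = 0.162). The interferon genes thus did not move as 1 group.

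Cell cycle genes fell almost throughout, by small amounts. Of 41 DNA replication genes 37 were lower and 0 higher, with a median of -0.35, and of 40 mitosis genes 35 were lower and 0 higher, with the same median. The mitosis count was 24 without DOT1Li replicate 2, 25 without combination replicate 3 and 28 without combination replicate 2. The DNA replication count was 32 without DOT1Li replicate 2 and 33 without combination replicate 3. MCM2, a subunit of the replicative helicase, fell from 289, 325 and 317 CPM to 240, 226 and 226 CPM (log2 -0.43 ± 0.06, adjusted p = 1.37e-07). DNMT1, the maintenance DNA methyltransferase, fell from 667, 733 and 723 CPM to 535, 497 and 502 CPM (log2 -0.47 ± 0.06, adjusted p = 7.88e-09). HMMR, which acts at the mitotic spindle, fell by 0.67, and the cyclin gene CCNA2 by 0.43. In bulk RNA a smaller share of cells in a cycle phase and less RNA per cell cannot be told apart. Of 15 cyclin and inhibitor genes 5 were lower (3 without combination replicate 2 or 3 or DOT1Li replicate 2 or 3) and 2 higher: CDKN2C fell by 0.67, while CCND2 rose from 2.17, 2.03 and 1.36 CPM to 5.08, 8.64 and 8.35 CPM (log2 1.97 ± 0.23, adjusted p = 1.76e-08).

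MYC, a transcription factor of growth, rose, and of the genes known to follow it some fell and the others were not called. MYC went from 495, 479 and 511 CPM to 622, 742 and 712 CPM (log2 0.48 ± 0.09, adjusted p = 6.08e-05). Of 36 MYC and nucleolar genes, MYC among them, 11 (30.6%) were lower and 1 higher, with a median of -0.15. Among all genes above 100 CPM in DMSO 31.5% were lower, with a median of -0.12, and the list was not matched for level. The lower count of the list was 5 without DOT1Li replicate 2 and 6 without combination replicate 3. With the 12 or the 6 Oci-Ly18 libraries it was 21. DDX21, a nucleolar helicase, and the lactate dehydrogenase gene LDHA fell by 0.38 and 0.37. Of 24 glycolysis genes 9 were lower and 3 higher (1 higher without combination replicate 2 or 3 or DOT1Li replicate 2); the pyruvate kinase gene PKM fell by 0.47 and ENO2, a neuronal enolase, rose by 1.53.

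Of 31 cytokine receptor and signalling genes 13 (41.9%) were higher and 2 lower (6 with the replicate block, 1 without combination replicate 2), with a median of 0.13. STAT5A rose from 16.8, 13.7 and 15.7 CPM to 28.2, 43.5 and 38.5 CPM (log2 1.24 ± 0.12, adjusted p = 1.87e-11). STAT3 and the kinase JAK3 rose by 0.50 and 0.76, and the interleukin 4 receptor gene IL4R fell from 44.4, 47.5 and 43.4 CPM to 26.5, 28.7 and 25.8 CPM (log2 -0.74 ± 0.11, adjusted p = 2.19e-06). Of 26 migration and adhesion genes 9 were higher, with the integrin chain ITGB2 at 1.97 and ICAM3 at 1.40, and 6 were lower, with ICAM1 at -0.59 and the confinement receptor S1PR2 at -0.51. TNF receptor family genes were higher in 6 of 20 cases and lower in 2. In the NF-kappa-B list 4 of 27 (14.8%) were higher (2 without combination replicate 3) and 3 (11.1%) lower, shares near the 12.7% and 8.90% of all genes; TRAF1 rose by 1.27 and RELB fell by 1.00.

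Cholesterol synthesis genes were lower in 3 of 29 cases (10.3%), near the 8.90% of all genes, and higher in 0. The lower count was 1 without DOT1Li replicate 3, 7 with the replicate block, 12 with the 12 Oci-Ly18 libraries and 11 with the 6. Of 28 p53 target genes 7 were lower and 1 higher, with 3 lower without combination replicate 2 and 4 without DOT1Li replicate 3. Of 27 amino acid stress genes 6 were lower (12 and 14 with the 12 and the 6 Oci-Ly18 libraries) and 1 higher (0 without combination replicate 3 or DOT1Li replicate 2), and the serine enzyme gene PSPH fell by 0.34. Of 14 PRC2 subunits 4 were lower and 2 higher (1 higher without combination replicate 2 or 3 or DOT1Li replicate 2 or 3). EZH2 fell from 238, 248 and 249 CPM to 209, 188 and 177 CPM (log2 -0.35 ± 0.06, adjusted p = 1.27e-05), and RBBP7 and RBBP4 fell by 0.34 and 0.27. EPOP, a PRC2 accessory protein, rose by 0.46. Among 18 DOT1L partners 2 were higher and 0 lower (1 in each direction without combination replicate 3), and DOT1L itself was at 87.8 to 88.8 CPM with DOT1Li and 88.1 to 93.4 CPM in the combination (log2 0.03 ± 0.08, adjusted p = 0.84). In the BCL2 family 3 of 15 genes were lower, with BCL2L1 at -0.45, and BCL2 itself was called only with the replicate block (log2 0.29; adjusted p = 0.114 without and 0.0146 with it).

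**Figure D3:**
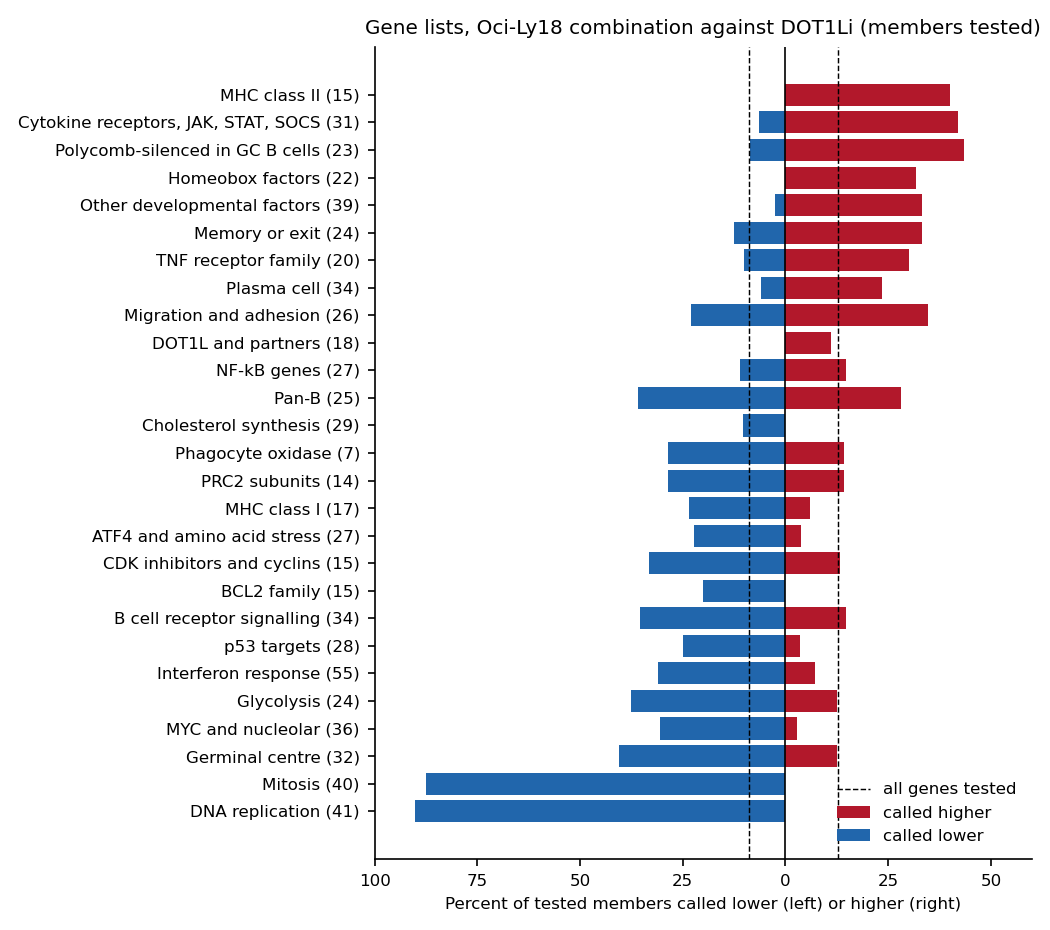
For each gene list, bars give the percentage of its tested members called higher (red, to the right) and lower (blue, to the left) in the combination against DOT1Li, with the number tested in brackets; dashed lines mark all genes tested. DNA replication and mitosis genes stand out on the lower side, and developmental, cytokine and MHC class II lists on the higher side. The bar for homeobox factors holds the HOX genes only. Without a filter on low counts, 10 of 82 other developmental factors were higher and 0 lower. Without DOT1Li replicate 1, DOT1Li replicate 3 or combination replicate 2 the MHC class II list had 2 higher genes of 15, a share near that of all genes.

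Most genes called in the combination against DOT1Li were also called with EZH2i alone. Against DMSO, EZH2i alone called 2301 genes higher (13%) and 1605 lower (9.04%). Of these, 1493 were also higher in the combination against DOT1Li (66.1% of its higher genes and 64.9% of those with EZH2i alone), and 933 were lower in both (59.1% and 58.1%). The 2 comparisons share no library. Across 12365 genes at an average log2 CPM of at least 1, the 2 effects had a Pearson r of 0.843, a description over genes that share depth and scaling. FNBP1, for example, was at 0.978, 1.51 and 0.841 CPM with DMSO and 22.5, 28.5 and 23.4 CPM with EZH2i alone.

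A difference between the 2 effects was called in few genes. In 37 (0.208%) it was higher on DOT1Li and in 27 (0.152%) lower, and the replicate block gave 102 and 98. Without DMSO replicate 3 the 37 became 24, and without EZH2i replicate 2 they became 21. The 37 were mostly genes that EZH2i alone lowered more: 30 of them were called lower alone and 30 had the smaller effect on DOT1Li. MAP4K1, a kinase that restrains antigen receptor signalling, fell from 50.1, 51.9 and 54.4 CPM to 16.1, 18.2 and 19 CPM alone, but on DOT1Li from 41.8, 48.8 and 44.4 CPM only to 34.1, 28.6 and 32 CPM (difference in log2 fold change 1.04 ± 0.12, adjusted p = 1.4e-07). CD27 fell by 2.60 (log2) alone and by 1.02 on DOT1Li (difference 1.58, adjusted p = 9.88e-06). RIPOR2, a regulator of the GTPase RHOA, fell by 1.21 alone and was not called on DOT1Li (difference 1.40, adjusted p = 2.29e-05), with 14.4, 18.5 and 14.5 CPM against 14.1, 22.4 and 17.7 CPM. EVI2B, which lies within NF1, fell by 1.66 alone and was called on DOT1Li only with the replicate block (adjusted p = 0.052 without and 0.0205 with it).

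Of the 27 genes with a lower effect on DOT1Li, 22 were called higher alone and 22 had the smaller effect on DOT1Li. CORO2B, a coronin of the actin cytoskeleton, rose from 2.69, 2.23 and 2.87 CPM to 8.63, 6.82 and 7.44 CPM with EZH2i alone, but was at 7.13, 8.11 and 7.66 CPM with DOT1Li and 6.74, 6.6 and 8.48 CPM in the combination (difference -1.60, adjusted p = 9.88e-06). ANXA6, an annexin, rose in both, by 2.88 alone and 1.75 on DOT1Li (difference -1.12, adjusted p = 0.000448), and CHST11 by 1.90 and 0.68. In these genes the libraries with DOT1Li alone were above the DMSO libraries, as with ANXA6 at 13, 9.76 and 9.74 CPM against 3.26, 2.39 and 3.58 CPM. The opposite pattern, a decrease on DOT1Li that EZH2i alone did not give, was seen in the non-coding gene BMS1P23, from 6.71, 5.86 and 7.03 CPM to 2.69, 1.81 and 1.8 CPM (difference -1.55, adjusted p = 0.0012).

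**Figure D4:**
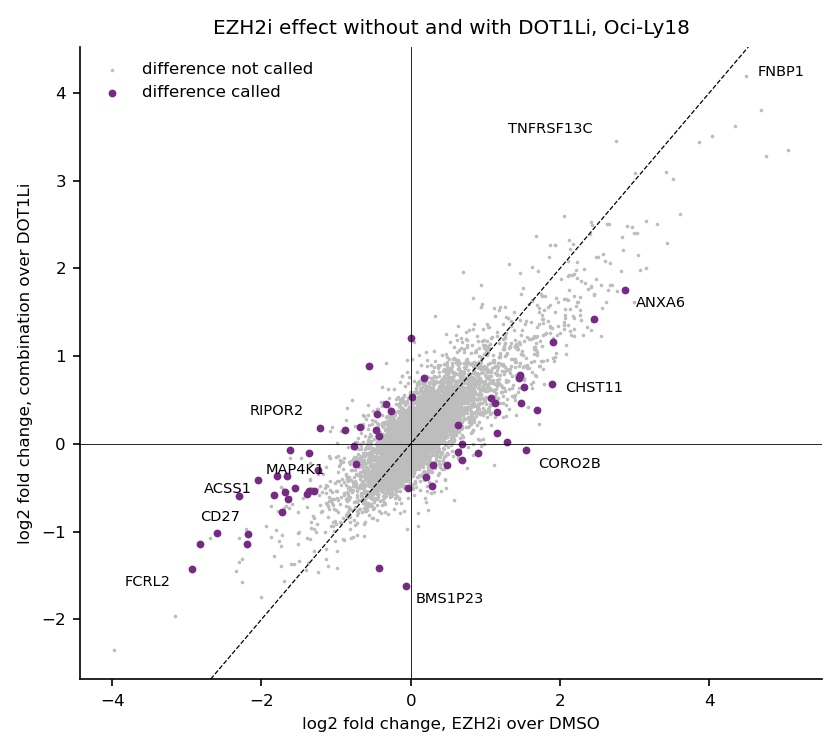
Each point is a gene at an average log2 CPM of at least 1 over the 12 Oci-Ly18 libraries, placed by its log2 fold change with EZH2i over DMSO and with the combination over DOT1Li; the dashed line marks equal effects, and purple genes had a called difference. Most genes lie along the line, and purple genes lie mainly where the effect on DOT1Li is the smaller one.

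The same comparison was made in the other 3 lines, with 0 libraries shared. There, 2012 (11.3%), 1924 (10.8%) and 2542 (14.3%) genes were higher and 1200 (6.76%), 1529 (8.61%) and 1996 (11.2%) lower in Oci-Ly7, Oci-Ly8 and SUDHL6. Of the 2258 genes higher in Oci-Ly18, 125 were called higher in all 4 lines, and 924 (40.9%) were called higher in none of the other 3. Of its 1580 lower genes 129 were called lower in all 4 lines, and 540 (34.2%) in none of the others. A call in 1 line and not in another is not a test of the difference.

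That difference, Oci-Ly18 against the mean of the other 3 lines, was called higher for 474 genes (2.67%) and lower for 792 (4.46%), and with the replicate block for 802 and 1223. Without combination replicate 2 the higher count was 315. Genes without counts in another line could not be called, which holds for 1904 of the tested genes, 368 of them higher in Oci-Ly18. FNBP1 rose in Oci-Ly18 and was at -0.29, 0.25 and -0.31 (log2) in Oci-Ly7, Oci-Ly8 and SUDHL6 (difference 4.31, adjusted p = 1.82e-12). TNFRSF13C rose by 0.91 in Oci-Ly7 and 0.63 in SUDHL6, less than its 3.45 in Oci-Ly18 (difference 2.90, adjusted p = 1.16e-14). INF2 (difference 3.69), NME4 (1.95), ANXA6 (1.54) and BLNK (1.31) were also higher in Oci-Ly18 than in the mean of the other lines. BLNK fell in Oci-Ly7 and SUDHL6 but not in Oci-Ly8, where its log2 fold change was above 0.

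On the lower side, GBP4 fell in Oci-Ly18 and rose by 2.33, 1.78 and 1.42 in Oci-Ly7, Oci-Ly8 and SUDHL6 (difference -4.20, adjusted p = 1.36e-10). IGLL1, a surrogate light chain gene of B cell precursors, was at 473, 525 and 455 CPM and 450, 440 and 430 CPM in Oci-Ly18 and was not called there. It rose by 4.71 in Oci-Ly7 and 5.14 in Oci-Ly8 (difference -3.37, adjusted p = 1.7e-12), a rise that SUDHL6 did not share. LGALS3BP, a secreted glycoprotein, fell by 1.01 in Oci-Ly18 and rose by 1.89 in Oci-Ly7 (difference -1.83, adjusted p = 1.55e-09). The autophagy receptor OPTN (difference -1.36) and the proton pump subunit TCIRG1 (-0.99) were lower here than elsewhere as well. Of the 55 interferon genes, 23 had a lower effect in Oci-Ly18 and 2 a higher one; Oci-Ly7 called 13 higher and 5 lower, Oci-Ly8 40 higher and 2 lower, and SUDHL6 7 in each direction. Of the 41 DNA replication genes 39 were lower in SUDHL6, 11 in Oci-Ly7 and 5 in Oci-Ly8, and the difference from the other lines was called lower in 6. MYC was lower in SUDHL6 and not called in Oci-Ly7 and Oci-Ly8 (difference 0.64, adjusted p = 2.2e-05).

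**Figure D5:**
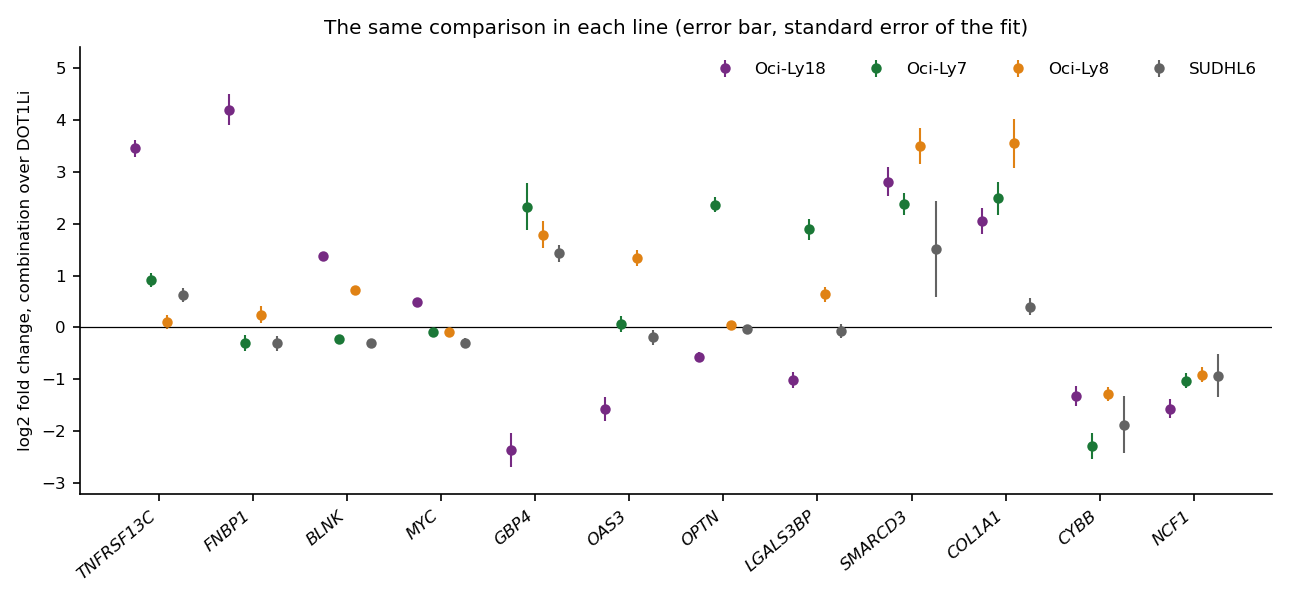
Log2 fold change, combination over DOT1Li, of 12 genes in each of the 4 lines; bars are standard errors of the fit. TNFRSF13C, FNBP1 and BLNK are highest in Oci-Ly18 and GBP4, OAS3, OPTN and LGALS3BP lowest there, while SMARCD3 and COL1A1 lie above 0 and CYBB and NCF1 below 0 in all 4 lines.

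Markers of other cell types were low in most lists, and a few rose. Summed T cell markers were at 423 to 455 CPM with DOT1Li and 469 to 521 CPM in the combination, of which IL7R made 380 and 417 CPM; CD3D, CD3G, CD2, CD5, CD7 and CD8B were at 0 in both groups. CD3E, CD4 and CD28 were at 0 with DOT1Li and at 0.0728, 0.0262 and 0.0262 CPM in the combination, and 2 of the 10 tested T cell markers were higher, among them the kinase LCK (log2 0.34, adjusted p = 0.0302), whose call was lost without combination replicate 2 or 3 or DOT1Li replicate 1 or 3 (adjusted p = 0.0779 to 0.141). Summed myeloid markers were at 4.47 to 5.71 CPM and 6.29 to 8.17 CPM, with CD68, MPO, FCGR1A and FCGR3A at 0 in both. Epithelial markers went from 5.03 to 6.64 CPM to 9.74 to 13.7 CPM, with the keratins KRT18 (log2 1.69) and KRT8 (log2 0.90) higher and EPCAM, KRT14 and KRT19 at 0 in both groups. Fibroblast or endothelial markers were at 11.7 to 14.4 CPM and 14.2 to 15.4 CPM, and COL1A1 rose from 1.05, 1.5 and 1.2 CPM to 3.86, 6.05 and 5.72 CPM (log2 2.04 ± 0.25, adjusted p = 2.3e-08) with LUM, CDH5 and KDR at 0 in both. COL3A1 and DCN were at 0 with DOT1Li and had counts in the combination, and PECAM1 fell by 0.76 on the log2 scale (adjusted p = 0.0414), a call lost without any 1 of the 6 libraries but DOT1Li replicate 1 (adjusted p = 0.0749 to 0.229). Summed NK cell markers were at 15.4 to 17.1 CPM and 20 to 25.2 CPM, with GZMA, GZMB, GZMH and NCR1 at 0 in both. GNLY, KLRD1, KLRF1 and NKG7 were at 0 with DOT1Li and had counts in the combination, and NCAM1 rose by 0.45 (adjusted p = 0.0346), a call lost without any 1 of the 6 libraries but combination replicate 1 (adjusted p = 0.0553 to 0.224). Erythroid or megakaryocytic markers were at 0.28 to 0.38 CPM and 0.32 to 0.61 CPM. Neuronal markers were at 71.8 to 75.8 CPM and 78.3 to 93.6 CPM, with RBFOX3, NEFL and SYT1 at 0 in both and SYP higher (log2 0.86, adjusted p = 0.00262, and 0.064 without DOT1Li replicate 1). How far other cell types had a part in any result was not tested.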

How the data were processed

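The deposited table holds raw read counts, per the labels one column per library, for 37706 genes in 48 libraries. Per the labels' protocols, libraries were made from poly(A) RNA with a stranded xGen kit. The submitters' processing notes name STAR, DESeq2 and GRCh38 (hg38) without roles or versions; how reads were counted, with which strand setting and annotation release, was not given in the sources used here. Groups came from the labels.

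Counts were fitted in R 4.3.3 with edgeR 4.0.16 (filterByExpr, TMM, robust quasi-likelihood F test) over all 16 groups with 32 residual degrees of freedom. CPM are counts over effective library sizes. Differences between effects and between lines were contrasts of the same fit. DESeq2 1.42.0, limma 3.58.1, pandas 2.3.3 and matplotlib 3.10.9 (Python 3.11.15) served for alternatives, tables and figures. Code was tested on simulated data. A count of 0 was bounded by 3 counts over the group, which covers counting error only.

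Members and lists were chosen with earlier results of these data known, and the lists were written from general knowledge. Named genes are a fixed panel, the 12 largest increases and 12 largest decreases among called protein-coding genes whose groups do not overlap and whose average log2 CPM is 1 or more, and up to 3 called members per list and direction with the smallest adjusted p. To these come 5 genes per direction for each difference tested, 8 genes at 0 counts in DOT1Li and 8 non-coding genes. Not every gene so picked is printed, and some genes are not reported here. Fold changes of CD79A, CD79B and of the markers LMO2, IL7R, LCK, NCAM1, PECAM1 and SYP and those at 0 come from the marker lists. Alternatives were DESeq2, its size factors, no filter on low counts, fits on 12 and 6 libraries, the replicate block and leaving out each library; leaving out Oci-Ly8 DMSO replicate 3 and Oci-Ly8 DOT1Li replicate 3 was added for the combination against DOT1Li after seeing the data.

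The replicate numbers pair the samples, though weakly. Deviations from the group mean correlated at 0.16, 0.12 and 0.16 for same-numbered DOT1Li and combination libraries, and at -0.13 to 0.01 for the others. Deviations within a group sum to 0, so the values below 0 follow in part from those above it. Calls in the report come from the fit without the replicate block, unless another setting is named. Promoter sequences are RefSeq's (GRCh38.p14); 11992 of 17749 tested genes (67.6%) matched.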

Additional observations from a re-analysis of the deposited data

Results flagged for a closer look

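Between EZH2i on DOT1Li and EZH2i alone, a difference was called for 37 genes in the higher and 27 in the lower direction by the test of the difference itself in edgeR. The named genes with a higher effect on DOT1Li were CD27 (1.58 on the log2 scale, adjusted p = 9.88e-06), RIPOR2 (1.40, adjusted p = 2.29e-05), EVI2B (1.29, adjusted p = 0.000212), MAP4K1 (1.04, adjusted p = 1.4e-07) and ACSS1 (1.02, adjusted p = 2.29e-05). In MAP4K1, CD27 and ACSS1 EZH2i lowered the gene in both settings, by less on DOT1Li. A lower effect on DOT1Li was found in CORO2B (-1.60, adjusted p = 9.88e-06), CHST11 (-1.21, adjusted p = 0.000828) and ANXA6 (-1.12, adjusted p = 0.000448). All 3 genes rose with EZH2i alone.

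Between Oci-Ly18 and the mean of the other 3 lines, the effect of the combination against DOT1Li was called higher for 474 genes and lower for 792. Higher in Oci-Ly18 were INF2 (3.69 on the log2 scale, adjusted p = 6.45e-13), TNFRSF13C (2.90, adjusted p = 1.16e-14), NME4 (1.95, adjusted p = 8.46e-14), ANXA6 (1.54, adjusted p = 2.17e-13) and BLNK (1.31, adjusted p = 1.7e-14). Lower there were GBP4 (-4.20, adjusted p = 1.36e-10), IGLL1 (-3.37, adjusted p = 1.7e-12), LGALS3BP (-1.83, adjusted p = 1.55e-09), OPTN (-1.36, adjusted p = 3.02e-13) and TCIRG1 (-0.99, adjusted p = 9.97e-11). IGLL1 stands out among these because it moved strongly in Oci-Ly7 and Oci-Ly8 and was not called in Oci-Ly18. SUDHL6 did not share the rise, so IGLL1 does not set Oci-Ly18 apart from every other line. No cause of these differences was tested.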

How the results depend on the processing

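The counts of genes called higher and lower in the combination against DOT1Li were 2343 and 1628 with DESeq2, 2309 and 1522 with its size factors in edgeR, 2044 and 1505 without a filter on low counts, and 2863 and 2112 with the replicate block. Lower calls rose to 2757 with the 12 Oci-Ly18 libraries and to 2567 with the 6 compared. Leaving out 1 of the 6 libraries gave 1614 to 2255 higher and 1051 to 1514 lower calls, 664 to 942 at a log2 fold change of at least 1 and 83 to 142 at -1 or below. Differences between EZH2i on DOT1Li and alone came to 60 higher and 63 lower with DESeq2, 84 and 58 without the filter, 165 and 145 with 12 libraries and 102 and 98 with the replicate block, and to 21 to 33 and 22 to 29 without 1 library. Differences from the other lines came to 802 and 1223 with the replicate block, and to 315 to 486 and 602 to 756 without 1 library. Without Oci-Ly8 DMSO replicate 3 and Oci-Ly8 DOT1Li replicate 3 the differences from the other lines came to 680 and 1143, and the combination against DOT1Li, an alternative chosen after seeing the data, to 2761 and 2250. The cause of these shifts was not tested. Named genes kept their sign in every setting run; beyond the genes given in the report, the block changed no call of a named gene. Low counts limit genes under about 1 CPM, where a few counts decide a call.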

Other observations

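Genes that neighbour each other on a chromosome shared calls somewhat more often than the average. Among 13805 pairs of tested, non-overlapping neighbours, the next gene was also called higher for 363 of 1753 higher genes (20.7%), while 13.5% of all second genes were called higher. For lower genes it was 177 of 1179 (15%), beside 9.11%. Pairs at most 50000 bases apart gave 22.7% beside 13.3% for higher and 17.8% beside 10.1% for lower genes. Pairs further apart gave 17.3% beside 13.9% and 8.08% beside 7.24%. INF2 and ADSS1, which both rose, lie 1694 bases apart on chromosome 14, and FCRL2 and FCRL1, which both fell, lie 17271 bases apart on chromosome 1. These shares are descriptions with no test, neighbours can share reads and levels, and no cause was tested.

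The immunoglobulin delta constant region gene IGHD rose from 14.7, 16.1 and 10.9 CPM to 28.8, 39.3 and 28.8 CPM in the combination (log2 1.20 ± 0.15, adjusted p = 2.14e-08 in edgeR's quasi-likelihood test). Among non-coding genes, ENSG00000289988 fell from 33.8, 38.1 and 35.9 CPM to 15.4, 13 and 12.1 CPM (log2 -1.41 ± 0.13, adjusted p = 8.32e-12), and LINC00205 rose by 0.78. Of 2669 lncRNA genes tested 199 (7.46%) were higher and 77 (2.88%) lower. By chromosome the share of genes called higher ran from 6.26% on X to 17% on chromosome 17, leaving out mitochondrial genes, of which 0 of 19 were called.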
